A study of Mus musculus with 16 samples.

Results

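LPS-treated macrophages sorted for high side scatter, called responders, were compared with the same kind of LPS-treated cells taken from the sorter without a gate, called the LPS pool. The comparison covers 8 of the 16 libraries sequenced, 4 per group, and every gene that passed the low-count filter. All cells were iBMDM MyD88-AGF, a continuously growing mouse macrophage line made from bone marrow, with the genotype given as MyD88-AGF WT, grown in DMEM with serum. Responders and the pool both received lipopolysaccharide (LPS) at 10 ng/mL for 6 h. The other groups, used here for levels and for defining gene sets, were bystanders (the same LPS treatment, sorted for low side scatter) and untreated cells, which passed the sorter without a gate. Sorting and later steps were held at 4 °C, and the pool was collected after the sorted cells, so collection time and gate cannot be told apart in any difference described here. All libraries came from this single line, and the labels do not say whether the 4 replicates of a group were separate cultures. Spread between replicates, on which every p-value rests, may thus be technical.

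LPS is a glycolipid of the outer membrane of Gram-negative bacteria. It is passed by CD14 to the receptor TLR4, which signals through the adaptor MyD88 and IRAK kinases (the myddosome) to NF-kappaB and inflammatory genes, and through the adaptor TRIF to interferon genes. Side scatter is the light a cell deflects sideways, and it rises with granules, vesicles and other internal structure. An ungated culture contains the cells that the gate selects along with those it leaves out, so responders here are compared with a mixture that includes such cells. In bulk RNA, fewer cells expressing a gene and less of its RNA per cell cannot be told apart.

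Library totals of the 8 libraries ran from 15287344 to 23898399 counts, and those of all 16 reached 25193162. Macrophage identity was plain in both groups: all 10 macrophage markers were detected, among them Csf1r, the receptor for the growth factor CSF1, at 550.5 ± 6.59 CPM (read counts scaled to library size with TMM factors; mean ± SD, n = 4) in responders and 592 ± 14.2 CPM in the pool. Of the markers of other cells, 0 erythroid, 1 neutrophil, 1 lymphocyte, 3 dendritic cell and 5 fibroblast genes passed the filter. Col1a1, a fibroblast collagen, was at 73.6 CPM in pool 3 and between 1.85 and 18.2 CPM in the other 7 libraries. Neural transcripts set some libraries apart. The sum over 19 neural markers with a median under 1 CPM was 10.4 to 17.7 CPM in responder 1, pool 3 and 4, bystander 3 and 4 and untreated 1, and 1.15 to 2.05 CPM in the other 10 libraries. Between 8 and 18 of the 19 had a read in each library compared. The first principal component of the 8 libraries, with 41.8% of the variance, placed responder 1 and pool 3 and 4 on one side and the other 5 on the other. Responders and pool parted on the second, with 16.6% of the variance. Results are therefore also given without the 6 libraries, a setting chosen after seeing the data that leaves 3 responder and 2 pool libraries.

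Responders departed from the pool in many transcripts, by small amounts. A gene was called different when edgeR's quasi-likelihood F test, fitted to all 16 libraries, gave an adjusted p under 0.05 after Benjamini-Hochberg correction over all genes. Of 12589 genes tested, 3205 (25.5%) were called: 2010 (16%) higher and 1195 (9.49%) lower in responders. The median higher call was 1.12-fold and the median lower call 1.14-fold, and the median log2 fold over all genes was 0.01. At least a 1.2-fold difference was fitted for 290 higher and 380 lower calls, 1.5-fold for 23 and 105, and 2-fold for 9 and 38. In 1640 of the higher and 830 of the lower calls, the 4 responder values and the 4 pool values did not overlap. Replicates lay close together, with a median biological coefficient of variation of 0.0357.

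The division between higher and lower depended on the scaling of the libraries and on which libraries were fitted. With TMM scaling of all 16 libraries 62.7% of the calls were higher. A fit of only the 8 libraries compared, also with TMM, gave 1657 higher and 1386 lower calls, 54.5% higher. Library totals alone gave 1073 higher and 2438 lower calls, 30.6% higher, and moved the median of all genes to -0.05. Differences of that size around 0 have no settled direction. Those named below are stated relative to TMM scaling, and the result with library totals is given only for some genes and lists. Leaving out the 6 libraries with neural transcripts gave 1579 higher and 939 lower calls, and 2229 calls were made in both fits. Testing against a minimum change of 1.2-fold left 12 higher and 56 lower calls.

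**Figure D1:**
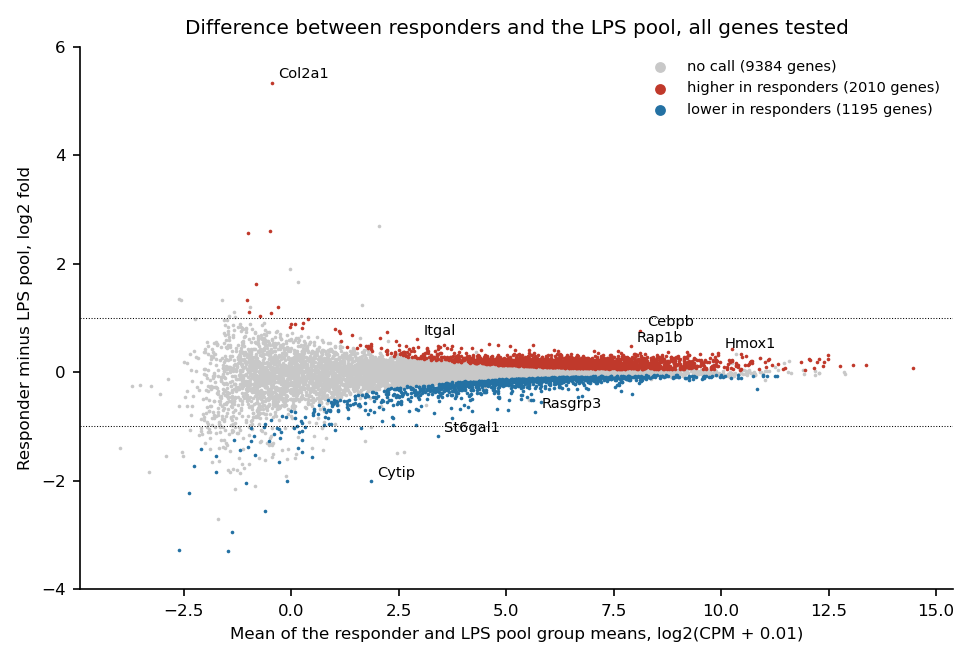
Fitted log2 fold of responders over the LPS pool against mean level (log2 of CPM + 0.01) for the 12589 genes tested, each a point, with the 2010 higher calls in red and the 1195 lower calls in blue; dotted lines mark 2-fold. The calls lie close to 0 on the vertical axis, and of the 47 calls past 2-fold only St6gal1 had a mean of at least 5 CPM.

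Among well-measured genes the largest rise in responders was in Cebpb (chromosome 2, 167688915 to 167690432), which encodes C/EBP-beta, a transcription factor of inflammatory gene programmes in myeloid cells. It stood at 332, 406, 361 and 306 CPM in responders 1 to 4 and at 223, 196, 176 and 231 CPM in pool libraries 1 to 4. The lowest responder library lay above the highest pool library, and Cebpb was 1.7-fold higher, with a log2 fold of 0.77 ± 0.11 (SE) and adjusted p = 0.000221. Bystanders, at 65.5 ± 8.19 CPM, and untreated cells, at 76.5 ± 11.1 CPM, were both far below the pool. Itgal (chromosome 7, 127296139 to 127335137), the alpha chain of the integrin LFA-1, was measured at 9.32, 9.73, 8.86 and 9.05 CPM in responders and 6.24, 6.41, 6.08 and 5.35 CPM in the pool. Its groups did not overlap either, and it was 1.53-fold higher, with a log2 fold of 0.61 ± 0.12 (SE) and adjusted p = 3.43e-05. Rap1b (chromosome 10, 117814597 to 117845974), a small GTPase that controls integrin adhesion, was measured more tightly. Its levels were 272, 276, 284 and 278 CPM in responders and 207, 189, 189 and 211 CPM in the pool. It was 1.4-fold higher, with a log2 fold of 0.48 ± 0.03 (SE) and adjusted p = 5.5e-21.

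The other genes at the top of the ranking (the 12 highest folds among calls with separate groups and a mean level of 5 CPM or more) had varied roles. Agrn, which encodes the basement-membrane proteoglycan agrin, lay at 59.5, 54.6, 57.4 and 59.6 CPM in responders and 40.1, 43.2, 43.1 and 37.1 CPM in the pool, with adjusted p = 2.41e-12. Cpeb4, a protein that binds mRNA and controls its translation, rose from 23.2 ± 2.69 to 33.1 ± 1.73 CPM (adjusted p = 6.45e-10), and at 33.01 ± 1.77 CPM bystanders also lay above the pool. Ocrl, an inositol phosphatase of endosomes, rose from 9.68 ± 0.636 to 13.7 ± 0.335 CPM (adjusted p = 2.68e-06). Gvin1, an interferon-induced very large GTPase with near-identical neighbours, rose from 8.77 ± 0.67 to 12.3 ± 1.89 CPM (adjusted p = 4.7e-05). Urah, an enzyme of urate breakdown, and Plekhh3 were the rest of this set outside the cytokine and stress genes described below, at 7.40 against 5.26 CPM and 15.5 against 11.1 CPM.

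The lowest fold among genes with a mean of 5 CPM or more, a log2 fold of -1.49, was not called. Among the called genes at that level, the largest fitted fall exceeded the largest rise. St6gal1 (chromosome 16, 23224729 to 23360350), the sialyltransferase that adds alpha-2,6-linked sialic acid to glycoproteins, stood at 5.56, 7.70, 5.72 and 6.86 CPM in responders and 14.9, 14.8, 14.6 and 14.4 CPM in the pool. The highest responder was well under the lowest pool library, and St6gal1 was 2.27-fold lower, with a log2 fold of -1.18 ± 0.08 (SE) and adjusted p = 1.4e-18. Bystanders held 44.6 ± 0.747 CPM and untreated cells 54.03 ± 1.26 CPM, so responders had the lowest level of the 4 groups. Rasgrp3 (chromosome 17, 75435870 to 75529054), an exchange factor that activates Ras and Rap GTPases, gave the smallest p of the lower genes. It was measured at 37.4, 38.7, 36.7 and 40.4 CPM in responders and 67.3, 63.2, 63.7 and 61.7 CPM in the pool. It was 1.67-fold lower, with a log2 fold of -0.74 ± 0.04 (SE) and adjusted p = 5.58e-23. Its level in bystanders, 191 ± 6.25 CPM, was near that of untreated cells, 199.97 ± 5.04 CPM. Ptgs1 (chromosome 2, 36216742 to 36258593), the constitutive cyclooxygenase of prostaglandin synthesis, lay at 24.5, 25.7, 25.3 and 24.6 CPM in responders and 39.5, 39.4, 42.02 and 42.9 CPM in the pool. It was 1.63-fold lower, with a log2 fold of -0.71 ± 0.05 (SE) and adjusted p = 2.64e-19.

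Further genes among the 12 lowest folds were Dmpk, a serine/threonine kinase, at 4.66, 4.79, 5.58 and 5.13 CPM in responders and 10.1, 10.4, 10.1 and 8.73 CPM in the pool, 1.97-fold lower (adjusted p = 1.25e-12). Ankle1, an endonuclease, fell from 17.3 ± 1.07 to 9.57 ± 0.17 CPM (adjusted p = 2.63e-15), and Angptl4, a secreted inhibitor of lipoprotein lipase, from 6.45 ± 1.01 to 3.64 ± 0.421 CPM (adjusted p = 1.55e-07). For these 3 genes bystanders, at 12.02, 13.6 and 4.43 CPM, were also far below untreated cells, at 32.04, 54.5 and 22.4 CPM. Tmem158, a membrane protein, stood at 14.7, 15.2, 13.7 and 12.4 CPM in responders and 24.5, 21.2, 21.1 and 25.3 CPM in the pool (adjusted p = 2.72e-07), while bystanders held 82.2 ± 6.37 CPM and untreated cells 87.01 ± 3.23 CPM. Asb4, Arhgef39 (a guanine nucleotide exchange factor) and Prkag2 (a regulatory subunit of the energy sensor AMPK) were 1.68-, 1.65- and 1.61-fold lower. The clustered histone genes H2ac24 and H2ac23 have near-identical copies, so that reads may be split among them. They were 1.97- and 1.79-fold lower, at 3.46 against 6.90 CPM and 3.67 against 6.66 CPM. Of 8 replication-dependent histone genes tested as a list, 1 was lower (H2ac24) and 0 higher, with a median log2 fold of -0.03. Over all genes tested 9.49% were lower.

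**Figure D2:**
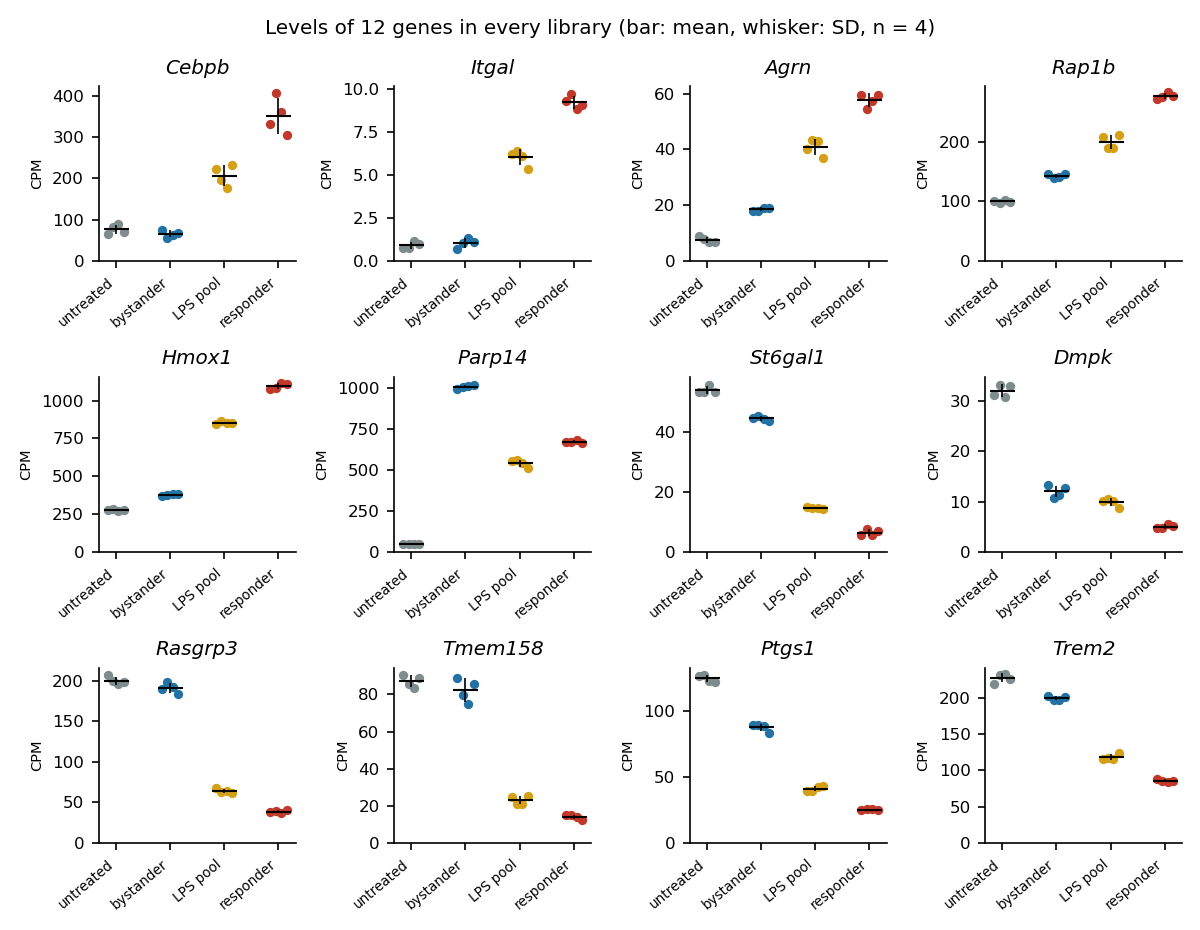
Level in CPM (vertical axis, from 0) of 12 genes in every library of the 4 groups; points are libraries, the horizontal bar is the mean and the whisker the SD (n = 4). Cebpb, Itgal, Agrn, Rap1b and Hmox1 are highest in responders, St6gal1, Dmpk, Rasgrp3, Tmem158, Ptgs1 and Trem2 are lowest there, and in Parp14 the pool, at 541 CPM, lies below both sorted groups.

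Differences past 2-fold were almost all in rare transcripts, 46 of the 47 having a mean under 5 CPM, and the genes named here were chosen after their values were seen. Cytip (chromosome 2, 58129139 to 58195549), a scaffold protein that restrains leukocyte adhesion, had 43, 28, 24 and 23 reads in responders and 109, 111, 106 and 69 in the pool. That was 2.05, 1.38, 1.19 and 1.07 CPM against 6.30, 5.27, 6.58 and 4.86 CPM, 4.02-fold lower, with a log2 fold of -2.01 ± 0.15 (SE) and adjusted p = 3.01e-17. Cd244a, a receptor of the SLAM family, had 2, 5, 3 and 5 reads in responders and 16, 21, 18 and 20 in the pool (adjusted p = 4.65e-08), and Cxcr4, the receptor for the chemokine CXCL12, had 3, 3, 1 and 0 and 13, 22, 4 and 9 (adjusted p = 4.88e-06). Every pool library had more reads of either gene than any responder, though for Cxcr4 the nearest libraries, pool 3 with 4 and responder 1 with 3, differed by a single read. Pdcd4, an inhibitor of translation, fell from 4.11 ± 0.436 to 2.004 ± 0.22 CPM (adjusted p = 1.55e-08). Among the 9 rises past 2-fold, Col2a1, the collagen of cartilage, had 50, 24, 3 and 42 reads in responders, 0, 1, 1 and 0 in the pool, 2, 0, 1 and 2 in bystanders and 42, 22, 9 and 36 in untreated cells. Krt8, an epithelial keratin, had 32, 29, 3 and 36 reads in responders, 2, 3, 1 and 7 in the pool, 3, 0, 1 and 4 in bystanders and 24, 29, 9 and 29 in untreated cells. Adjusted p was 0.00155 for Col2a1 and 0.00861 for Krt8. Both genes were scarce in libraries 3 of the responders and of the untreated cells, and nearly missing from the pool and the bystanders, so responder 3 overlapped the pool for Krt8.

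Gene lists written for the LPS response were then read by their counts of calls, which are descriptions and not tests of a list. Genes with the smallest p of each list are named by rule, and the others after their values were seen. Each count can be set against the 16% of all genes called higher and the 9.49% called lower. Counts with library totals alone can be set against 1073 higher and 2438 lower calls among the 12589 genes under that scaling. Upstream, the receptor and adaptor were close in both groups. Tlr4 lay at 29.4, 30.7, 32.1 and 30.7 CPM in responders and 34.9, 31.7, 29.7 and 31.2 CPM in the pool, overlapping, with a log2 fold of -0.05 ± 0.05 (SE) and adjusted p = 0.451. Myd88, its adaptor, lay at 217, 212, 211 and 202 CPM and 212, 207, 201 and 196 CPM, also overlapping, with a log2 fold of 0.04 ± 0.02 (SE) and adjusted p = 0.232. Cd14, the co-receptor that hands LPS to TLR4, did separate, at 771, 766, 774 and 781 CPM against 668, 650.4, 671 and 670.1 CPM. It was 1.16-fold higher, with a log2 fold of 0.22 ± 0.02 (SE) and adjusted p = 3.93e-14. Of the 27 tested genes of the TLR4 and myddosome pathway, 12 were higher and 0 lower, with a median log2 fold of 0.09.

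Within that pathway the kinases and adaptors divided. Irak2, the kinase that sustains myddosome signalling, stood at 184, 193, 190.5 and 189 CPM in responders and 149, 156, 151 and 154 CPM in the pool, 1.24-fold higher (adjusted p = 5.83e-15). Irak3, the inhibitory member of the family, stood at 88.1, 85.1, 81.6 and 82.6 CPM and 67.6, 73.4, 70.3 and 67.2 CPM, 1.21-fold higher (adjusted p = 2.33e-07). Both were higher in 4 of 4 responders, whereas Irak1 (67.9 against 70.4 CPM, log2 fold -0.05, adjusted p = 0.383) and Irak4 (29.6 against 29.1 CPM, log2 fold 0.03, adjusted p = 0.753) were not called. Ticam1, which encodes TRIF, was higher at 68.3 against 55.9 CPM, as were the kinases Tbk1 at 114 against 98.1 CPM and Ikbke at 315 against 271 CPM. With library totals alone the pathway had 8 higher and 2 lower calls.

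Genes of NF-kappaB subunits and regulators, many of them NF-kappaB targets, were nearly uniformly a little higher in responders. Of 22 tested, 18 were called higher and 0 lower, with a median log2 fold of 0.18. Nfkbia, the inhibitor IkappaB-alpha, lay at 553, 568, 553 and 550.4 CPM in responders and 501, 508, 511 and 521 CPM in the pool. Its groups were separate but close, 1.09-fold apart (adjusted p = 0.00216), and with library totals alone it lost its call. Tnfaip3, the ubiquitin-editing enzyme A20, was at 130.3 ± 2.85 against 109 ± 2.92 CPM (adjusted p = 6.1e-10). Nfkbiz, the nuclear inhibitor IkappaB-zeta, was at 189.9 ± 3.84 against 157 ± 3.25 CPM (adjusted p = 5.82e-12), and Nfkb1, the p50 subunit precursor, at 323 ± 2.86 against 269 ± 5.59 CPM (adjusted p = 3.49e-15). Rela (79.1 against 77.7 CPM, log2 fold 0.02, adjusted p = 0.696) and Cyld (30.7 against 30.5 CPM, log2 fold 0.01, adjusted p = 0.876) were among the 4 with no call. Bystander levels of these genes were mostly lower again. Against the same pool libraries 18 of the 22 were called lower in bystanders and 2 higher. Of all genes 32.9% and 34.1% were. The pool libraries are shared by both comparisons, so their values are set side by side only.

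Of 20 secreted inflammatory cytokines tested, 8 were called higher and 0 lower, with a median log2 fold of 0.18. Il1rn, the antagonist of the interleukin-1 receptor, gave the smallest p of the list, at 6122, 6229, 6246 and 6236 CPM in responders and 5268, 5271, 5152 and 5236 CPM in the pool. It was 1.19-fold higher, with a log2 fold of 0.25 ± 0.02 (SE) and adjusted p = 4.97e-18. Tnf, encoding tumour necrosis factor, lay at 2224, 2249, 2188 and 2212 CPM and 1979, 1982, 1877 and 1990.02 CPM, 1.13-fold higher (adjusted p = 0.00872). Il18, Osm, Csf1, Il15, Tgfb1 and Il1f9 were the other higher calls, with log2 folds from 0.07 in Tgfb1 to 0.29 in Il1f9. Lta, the gene for lymphotoxin alpha, which was not on the list, was one of the 12 highest folds at 13.6, 13.2, 12.2 and 12.1 CPM in responders and 9.24, 9.11, 8.44 and 10.2 CPM in the pool (adjusted p = 0.015). The gene Lta lost its call without responder 1, responder 2 or pool 2, with adjusted p of 0.0568, 0.0558 and 0.0525.

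Both interleukin-1 genes and several other strongly induced transcripts did not pass the test in the fit of all 16 libraries, although most had separate groups. Il1b stood at 3177, 3334, 3325 and 3224 CPM in responders and 2798, 2782, 2793 and 2926 CPM in the pool, with no overlap, a log2 fold of 0.21 ± 0.25 (SE) and adjusted p = 0.62. Bystander libraries 1 to 4 held 7.79, 9.03, 64.1 and 65.1 CPM of Il1b, and that within-group spread enters the error shared by the 4 groups. A fit of only the 8 libraries compared gave a log2 fold of 0.19 with adjusted p = 1.23e-10. Il1a, at 2029, 2112, 2152 and 2107 CPM against 1727, 1744, 1748 and 1748 CPM, went from adjusted p = 0.398 to 2.42e-14. Nos2, the inducible nitric oxide synthase, at 1466, 1424, 1457 and 1482 CPM against 1182, 1174, 1168 and 1082 CPM, went from adjusted p = 0.0909 to 1.57e-15. Both had separate groups and the same direction in either fit. Csf3, granulocyte colony-stimulating factor, at 1267, 1314, 1314 and 1279 CPM against 1117, 1137, 1134 and 1185 CPM, went from adjusted p = 0.558 to 2.65e-08. Ccl5, an attractant of T cells, at 888, 960.3, 965 and 936 CPM against 843, 849.6, 845 and 892 CPM, went from adjusted p = 0.56 to 0.000399, with responder 1 just under pool 4. Il6, at 759, 799, 802 and 788 CPM in responders and 739, 729, 742 and 798 CPM in the pool, also overlapped, and its adjusted p was 0.738 with all libraries and 0.148 with 8. Without the 6 libraries that carry neural transcripts, all 6 genes were called. The log2 folds were 0.24 for Il1b, 0.29 for Il1a, 0.30 for Nos2, 0.21 for Csf3, 0.17 for Ccl5 and 0.12 for Il6. In that fit 12 of 20 cytokines were higher and 0 lower. It left out bystander 3 and 4, but also responder 1 and pool 3 and 4, among them the libraries that overlapped in Ccl5 and Il6. A fit of only the 6 libraries, with 1 responder, gave log2 folds of 0.16, 0.22, 0.39, 0.13, 0.04 and -0.02 in the same order.

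Chemokines, the secreted attractants of leukocytes, showed 11 higher and 0 lower calls among 17 tested, with a median log2 fold of 0.18. Ccl2, which draws monocytes, stood at 5303, 5489.9, 5449 and 5402 CPM in responders and 4530.1, 4492, 4589.7 and 4678 CPM in the pool. It was 1.18-fold higher, with a log2 fold of 0.24 ± 0.02 (SE) and adjusted p = 2.37e-17. Cxcl10, an interferon-induced attractant of T cells, stood at 3853, 4049, 3978 and 3983 CPM and 3477, 3444, 3459 and 3583 CPM, 1.14-fold higher (adjusted p = 1.84e-12). In both genes the 4 responders were above the 4 pool libraries. Cxcl3, a neutrophil attractant, had the largest chemokine fold, 1.49, but a low level, 6.71, 5.68, 6.87 and 6.81 CPM against 4.04, 4.70, 4.22 and 4.50 CPM (adjusted p = 0.00156). Cxcl2 (2976 against 2629 CPM, log2 fold 0.18, adjusted p = 0.4) did not pass. All 17 tested chemokines were called lower in bystanders than in the same pool, where 32.9% of all genes were called lower and 34.1% higher.

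Effector genes of the activated macrophage had 14 higher and 0 lower calls among 23 tested (median log2 fold 0.20). Acod1, which makes itaconate, was at 6335 ± 70.2 against 5098 ± 29.2 CPM (adjusted p = 1.27e-06). Ptgs2, the inducible cyclooxygenase, was at 1561 ± 50.8 against 1241 ± 6.88 CPM (adjusted p = 0.000356), opposite in direction to Ptgs1. Clec4e, the receptor Mincle, was at 2082 ± 41.8 against 1739 ± 31.4 CPM (adjusted p = 1.23e-16). The acute-phase genes Saa3 (2519 against 2344 CPM, log2 fold 0.10, adjusted p = 0.755) and Lcn2 (266 against 246 CPM, log2 fold 0.11, adjusted p = 0.471) were not called. Among genes of inflammasomes and lytic death, 9 of 17 were higher and 1 lower, with the sensor Nlrp3 at 398 ± 5.34 against 325 ± 14.1 CPM (adjusted p = 3.86e-15) and the protease Casp1 at 289.6 ± 4.43 against 244 ± 4.39 CPM (adjusted p = 9.27e-14).

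**Figure D3:**
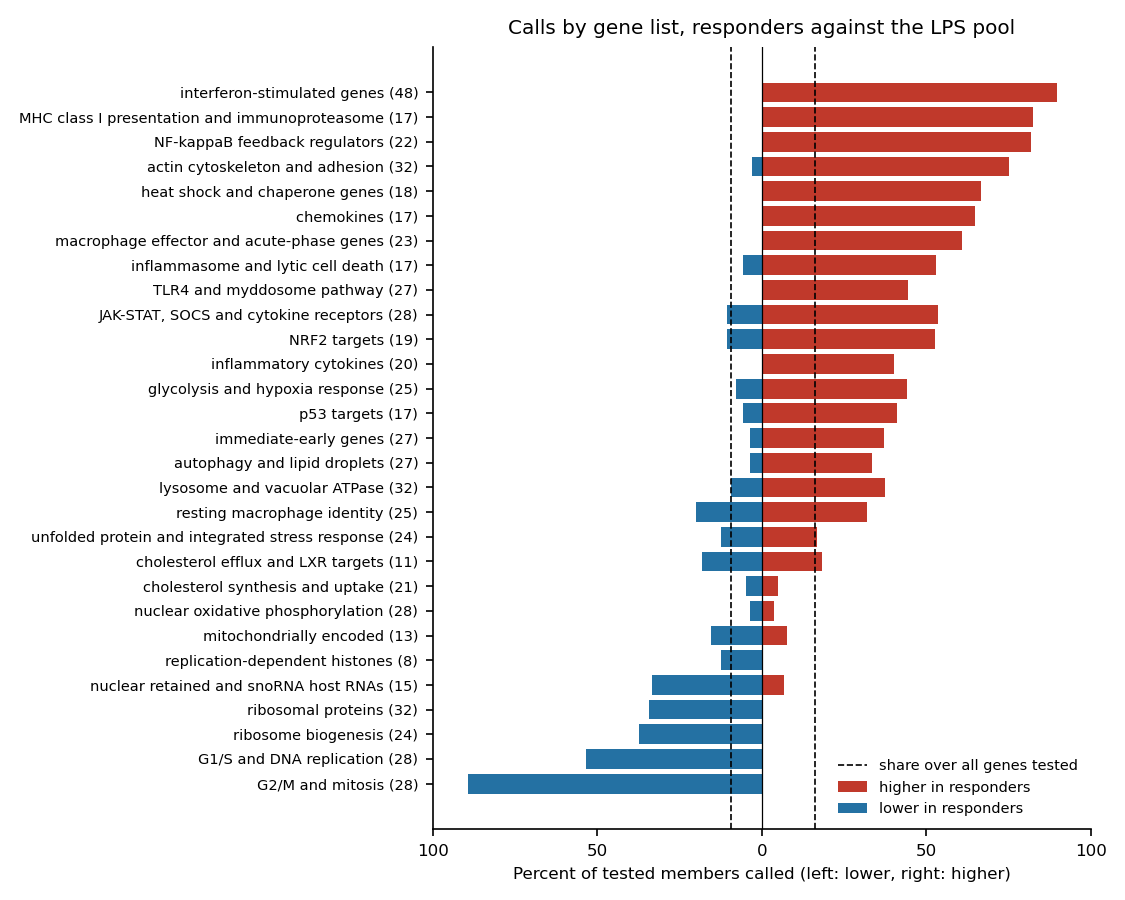
Percent of the tested members of each gene list (number tested in brackets) called higher (red, right) or lower (blue, left) in responders than in the LPS pool; dashed lines mark 16% and 9.49%, the shares over all genes. Interferon-stimulated genes, with 43 of 48 higher, stand at the top, and genes of G2 and mitosis, with 25 of 28 lower, at the bottom.

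Interferon-stimulated genes carried the densest set of higher calls. These genes answer to type I interferon through a complex that holds STAT2 and IRF9 and binds the interferon-stimulated response element of their promoters. Promoter stretches of 4 of them are printed here because the list moved together: Cxcl10 and Stat2, named by rule, and Isg15 and Gbp2, chosen after their values were seen. Each is 100 bases 5′ to 3′ on the gene's strand from RefSeq (GRCm38.p6). Capitals mark matches to the core, which reads GAAA, any 2 bases and GAAA again, or on the other strand TTTC, any 2 bases and TTTC. They lie at chr5:92349040-92349139 (minus strand), chr10:128270248-128270347 (plus), chr4:156200836-156200935 (minus) and chr3:142620559-142620658 (plus).
Cxcl10: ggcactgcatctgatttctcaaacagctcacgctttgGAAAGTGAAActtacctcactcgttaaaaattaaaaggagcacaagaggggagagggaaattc
Stat2: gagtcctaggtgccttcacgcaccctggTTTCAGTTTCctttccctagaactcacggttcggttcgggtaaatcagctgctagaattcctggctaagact
Isg15: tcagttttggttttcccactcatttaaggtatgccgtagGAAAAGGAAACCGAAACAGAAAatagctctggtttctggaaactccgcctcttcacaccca
Gbp2: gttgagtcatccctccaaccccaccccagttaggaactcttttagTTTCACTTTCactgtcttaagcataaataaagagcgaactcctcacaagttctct
Isg15 held 3 overlapping matches, the first starting 78 bases before the transcript start, and the other 3 genes held 1 match each. Of the 48 interferon-stimulated genes tested, 37 had a promoter in the table, and 22 of these (59.5%) held the core in the 250 bases before a start, beside 936 of all 27025 genes with a promoter (3.46%). The NF-kappaB core, GGG followed by any 5 bases and CC, searched on both strands, was in 21 of the 37 and in 48.7% of all genes. The heat shock element and AP-1 cores were in 5 and 9 of the 37, and in 8.11% and 7.82% of all genes. A match is a string of letters, not a measured site.

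In the data, 43 of 48 interferon-stimulated genes were called higher in responders and 0 lower, with log2 folds that stayed between -0.01 and 0.33 and a median of 0.19. Stat2 (chromosome 10, 128270498 to 128292853) stood at 414, 406, 423 and 411 CPM in responders and 346, 357, 349 and 329.7 CPM in the pool. It was 1.2-fold higher, with a log2 fold of 0.26 ± 0.02 (SE) and adjusted p = 4.03e-15. Parp14, a mono-ADP-ribosyltransferase, stood at 672, 672, 685 and 663 CPM and 554, 559, 541 and 512 CPM, 1.24-fold higher (adjusted p = 7.83e-18). In both genes the groups were well apart and replicates within a group differed little. Gbp2, a guanylate-binding protein, was at 974 ± 12.4 against 831 ± 11.03 CPM (adjusted p = 8.99e-12), and Trim30a had the largest fold of the list at 333 ± 8.40 against 264 ± 3.14 CPM (adjusted p = 8.8e-18). The 5 members with no call were Isg15 (662 against 624 CPM, log2 fold 0.08, adjusted p = 0.128), Iigp1, Tgtp1, Socs1 and Zbp1. Irf1, a transcription factor of the list, was 1.09-fold higher (adjusted p = 0.000183), and without the 6 libraries its adjusted p was 0.0615. In that fit 42 of 48 members were higher.

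Against the same pool libraries 29 members were called higher in bystanders and 18 lower, beside 34.1% and 32.9% of all genes, with a median log2 fold of 0.21. Parp14 was at 1009 ± 10.2 CPM in bystanders and Stat2 at 512 ± 2.74 CPM, both above the pool. Rnf213, outside the list and chosen after its values were seen, was at 1411 ± 23.8 CPM in responders, 1045 ± 73.8 CPM in the pool and 1559 ± 26.2 CPM in bystanders. Gbp5 went the other way, at 467 ± 8.27 CPM in responders, 402 ± 10.8 CPM in the pool and 145 ± 6.96 CPM in bystanders, as did Cxcl10 with 1974 ± 18.3 CPM in bystanders. Among the 3 LPS-treated groups the pool was thus lowest in Stat2, Parp14 and Rnf213 and intermediate in Gbp5 and Cxcl10. Cells outside both gates were not measured on their own, and the part of the pool's later collection was not tested.

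**Figure D4:**
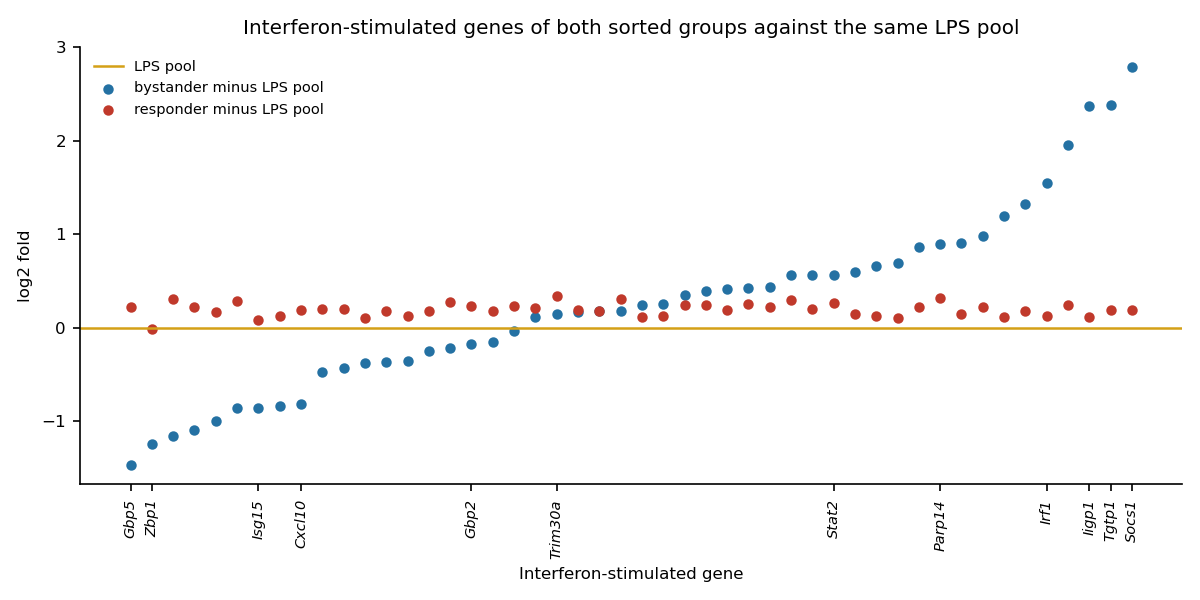
Log2 fold against the LPS pool (horizontal line at 0) of the 48 interferon-stimulated genes in responders (red) and in bystanders (blue), ordered by the bystander value, with genes of the text labelled; each point is a fitted value from 4 libraries against the same 4 pool libraries. Responder values lie in a narrow band with a median of 0.19, while bystander values range from -1.47 (Gbp5) to 2.79 (Socs1).

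Genes of MHC class I presentation, which load peptides for cytotoxic T cells and are also interferon targets, had 14 higher and 0 lower calls among 17 tested (median log2 fold 0.14). Tapbp, the peptide-loading chaperone tapasin, was at 655 ± 4.89 against 569 ± 7.99 CPM (adjusted p = 6.09e-13), and B2m, the light chain, at 1699 ± 35.5 against 1526 ± 23.9 CPM (adjusted p = 3.72e-10). The heavy chains H2-D1 and H2-K1, alike enough in sequence that their counts are uncertain, were 1.14- and 1.1-fold higher. With library totals alone the list had 11 higher and 2 lower calls. Of 28 genes of JAK-STAT signalling, its suppressors and cytokine receptors 15 were higher, among them the receptor Tnfrsf1b at 1683 ± 4.13 against 1367 ± 28.1 CPM, the kinase Jak2 at 162 ± 1.71 against 135 ± 1.42 CPM and the suppressor Socs3 at 281 ± 7.34 against 244 ± 9.56 CPM. The 3 lower calls were all receptors of the interleukin-1 and interleukin-6 systems, Il6ra at 9.48 ± 0.314 against 12.6 ± 0.202 CPM, Il1rl1 at 4.12 ± 0.84 against 5.90 ± 0.292 CPM and Il1r1 at 0.746 against 1.34 CPM.

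Oxidative stress genes were higher in part. Hmox1 (chromosome 8, 75093618 to 75100593), haem oxygenase-1, gave the smallest p of all genes tested, at 1079, 1086, 1113 and 1109 CPM in responders and 847, 863, 854 and 849 CPM in the pool. It was 1.29-fold higher, with a log2 fold of 0.36 ± 0.02 (SE) and adjusted p = 4.02e-23. Slc7a11 (chromosome 3, 50364936 to 50499087), the cystine transporter, stood at 77.1, 77.9, 77.3 and 82.7 CPM and 57.5, 61.04, 56.5 and 60.9 CPM, 1.33-fold higher (adjusted p = 4.37e-13). Groups were separate in both. They are targets of NRF2, the antioxidant transcription factor, as are the thioredoxin reductase Txnrd1 (519 against 447 CPM, log2 fold 0.22, adjusted p = 3.02e-12) and the glutathione reductase Gsr (255 against 221 CPM, log2 fold 0.21, adjusted p = 8.56e-11). Of 19 NRF2 targets tested, 10 were higher and 2 lower (Gclc and Taldo1), and the classical target Nqo1 (3.25 against 3.72 CPM, log2 fold -0.19, adjusted p = 0.386) was not called. Cytosolic chaperones had 12 higher and 0 lower calls among 18 (median log2 fold 0.12), led in p by Hspa8, the constitutive Hsp70, at 5101 ± 48.1 against 4488 ± 81.5 CPM (adjusted p = 5.08e-14). The heat-inducible gene Hspa1b, a near-identical copy of Hspa1a, was at 29.8, 27.8, 28.7 and 28.7 CPM in responders and 19.6, 18.5, 25.9 and 16.3 CPM in the pool (adjusted p = 0.0188). The gene Hspa1b lost its call without pool 2 or pool 4, with adjusted p of 0.0590 and 0.0524. Chaperones and sensors of the endoplasmic reticulum had fewer calls: 4 of 24 unfolded-protein and integrated stress genes were higher and 3 lower, with Hspa5 (2100.4 against 2078 CPM, log2 fold 0.02, adjusted p = 0.568) and Ddit3 (67.1 against 65.97 CPM, log2 fold 0.03, adjusted p = 0.698) not called. Immediate-early genes, which respond to signals within minutes, had 10 higher and 1 lower call among 27. Of these the stress factor Atf3 was at 948, 984, 964 and 953 CPM against 847, 842, 832 and 826 CPM (adjusted p = 9.13e-13) and Jund at 254 ± 6.03 against 216 ± 8.80 CPM (adjusted p = 2.44e-09).

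Structural and adhesion genes were mostly higher. Of 32 tested genes of the actin cytoskeleton and adhesion, 24 were higher and 1 lower (Fscn1, under 1 CPM and with overlapping groups), with a median log2 fold of 0.13. Itga5, the fibronectin receptor chain, stood at 508, 488, 483 and 493 CPM in responders and 411, 416, 419 and 417 CPM in the pool, 1.19-fold higher (adjusted p = 3.93e-14). Actg1, gamma-actin, was at 2360.3 ± 32.4 against 2028 ± 39.6 CPM (adjusted p = 1.63e-15), and Actb, beta-actin, at 10972 ± 138 against 10055 ± 163 CPM (adjusted p = 2.89e-08). Pfn1 (2184 against 2138 CPM, log2 fold 0.03, adjusted p = 0.239) and Cfl1 (2599.8 against 2527 CPM, log2 fold 0.04, adjusted p = 0.0853), which bind and sever actin, were not called. Under library totals the list had 17 higher and 2 lower calls. Lysosomal genes had 12 higher and 3 lower calls among 32. Lamp2, a lysosomal membrane protein, was at 721 ± 19.9 against 607 ± 7.30 CPM (adjusted p = 1.7e-15) and the protease Ctsc at 312 ± 3.25 against 263 ± 4.65 CPM (adjusted p = 4.7e-13), while Ctsd (3844 against 3918 CPM, log2 fold -0.03, adjusted p = 0.245) was not called. Library totals alone gave the lysosomal list 4 higher and 7 lower calls and turned its median from 0.04 to -0.02, so this list has no settled direction. Autophagy and lipid droplet genes had 9 higher and 1 lower call among 27, with the cargo receptor Sqstm1 at 1639 ± 17.8 against 1494 ± 11.3 CPM (adjusted p = 8.31e-09), but 4 and 5 with library totals alone.

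Proliferation genes were lower in responders. Of 28 genes of G2 and mitosis 25 were lower and 0 higher, with a median log2 fold of -0.20, and 25 were lower without the 6 libraries. Kif11, the motor that parts spindle poles, stood at 32.2, 35.5, 36.5 and 35.6 CPM in responders and 44.9, 46.1, 48.9 and 46.1 CPM in the pool, 1.33-fold lower (adjusted p = 5.22e-12). Kif23, a motor of cytokinesis, stood at 39.8, 40.1, 43.3 and 41.2 CPM and 53.1, 52.3, 58.1 and 53.7 CPM, 1.32-fold lower (adjusted p = 1.83e-12). The groups were separate in both. Mki67, the antigen Ki-67, was at 179.6 ± 2.12 against 228 ± 17.9 CPM, and bystanders held 476 ± 5.65 CPM. Of 28 genes of the G1/S transition and DNA replication 15 were lower and 0 higher. Tk1, thymidine kinase of S phase, lay at 33.7, 35.5, 33.7 and 32.6 CPM in responders and 46.4, 48.04, 45.1 and 50.3 CPM in the pool, 1.4-fold lower (adjusted p = 5.2e-14), while Mcm6 (270.05 against 270.01 CPM, log2 fold -0.00, adjusted p = 0.999) and Pcna (359 against 373 CPM, log2 fold -0.06, adjusted p = 0.0627) were not called. Against the same pool, bystanders had 24 higher and 0 lower calls in the G2 and mitosis list, beside 34.1% and 32.9% of all genes.

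Targets of p53, which halt the cycle or promote death, had 7 higher and 1 lower calls among 17. Plk2 was at 638 ± 13.2 against 535 ± 11.4 CPM (adjusted p = 1.45e-15), Mdm2 at 422 ± 13.2 against 365 ± 5.09 CPM (adjusted p = 8.05e-12) and the stress cytokine Gdf15 at 554 ± 12.9 against 456 ± 15.8 CPM (adjusted p = 3.48e-11), while Zmat3 (43.7 against 44.7 CPM, log2 fold -0.03, adjusted p = 0.667) and Ccng1 (109 against 109.8 CPM, log2 fold -0.00, adjusted p = 0.958) were not called. Genes of growth were called in the lower direction alone: 11 of 32 ribosomal protein genes (median log2 fold -0.05) and 9 of 24 genes of ribosome biogenesis were lower and 0 of either were higher. Dkc1, a nucleolar pseudouridine synthase, was at 139 ± 5.14 against 158 ± 4.32 CPM (adjusted p = 2.1e-06). Without the 6 libraries, 5 ribosomal protein genes were lower, and with library totals alone 29, beside 2438 of all 12589 genes under that scaling.

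Metabolic genes were divided. Hif1a, the hypoxia-inducible factor, was at 268 ± 6.17 against 219 ± 4.92 CPM (adjusted p = 1.79e-15) and its target Slc2a1, the glucose transporter GLUT1, at 560.3 ± 8.60 against 466 ± 21.9 CPM (adjusted p = 1.05e-14). The enzymes Pkm (7485 against 7654 CPM, log2 fold -0.03, adjusted p = 0.159) and Ldha (4722 against 4619 CPM, log2 fold 0.03, adjusted p = 0.163) were not called, and the glycolysis and hypoxia list had 11 higher and 2 lower of 25, or 7 and 9 with library totals alone. Under that scaling the median log2 fold turned from 0.03 to -0.03 in this list, from 0.04 to -0.02 in the p53 targets and from 0.02 to -0.03 in the unfolded-protein list. Nuclear genes of oxidative phosphorylation had 1 higher and 1 lower call among 28, below the share over all genes. With library totals alone 16 were lower, beside 2438 of all 12589 genes. Mitochondrially encoded transcripts made up 1.44 ± 0.0261% of counts in responders and 1.45 ± 0.0127% in the pool. Of 21 genes of cholesterol synthesis and uptake 1 was higher and 1 lower. The lower gene was Fdps, which makes farnesyl diphosphate (138 against 147 CPM, log2 fold -0.08, adjusted p = 0.0111). The desaturase Scd2, an LXR target that makes monounsaturated fatty acids, was among the smallest p values of all, at 217, 207, 209 and 209.6 CPM in responders and 278, 281, 282 and 269 CPM in the pool. It was 1.32-fold lower, with a log2 fold of -0.40 ± 0.02 (SE) and adjusted p = 3.48e-22.

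Genes listed for resting macrophage identity split into rises and falls, 8 higher and 5 lower among 25 tested. Cebpb, described above, is on this list and was its largest rise, although untreated cells held 76.5 CPM of it and responders 351 CPM. Trem2 (chromosome 17, 48346401 to 48352276), a lipid-sensing receptor, stood at 88.1, 85.3, 83.7 and 85.2 CPM in responders and 116, 117, 116 and 124 CPM in the pool. It was 1.38-fold lower, with a log2 fold of -0.46 ± 0.03 (SE) and adjusted p = 1.4e-19. Csf1r was also lower (550.5 against 592 CPM, log2 fold -0.11, adjusted p = 1.75e-05), as was Cebpa, the sister factor of Cebpb (4.07 against 6.15 CPM, log2 fold -0.60, adjusted p = 4.88e-05). Adgre1, the macrophage antigen F4/80, stood at 289, 293, 292 and 294 CPM in responders and 242, 234, 235 and 227 CPM in the pool. It was 1.24-fold higher, with a log2 fold of 0.32 ± 0.02 (SE) and adjusted p = 3.03e-17. The scavenger receptor Msr1 (513 against 436 CPM, log2 fold 0.24, adjusted p = 2.53e-14) and the Fc receptor Fcgr1 (561 against 484 CPM, log2 fold 0.21, adjusted p = 6.47e-12) were higher too, while the lysosomal markers Cd68 (706 against 718 CPM, log2 fold -0.03, adjusted p = 0.379) and Lyz2 (1173 against 1187 CPM, log2 fold -0.02, adjusted p = 0.608) were not called. Of 15 nuclear-retained and snoRNA host RNAs 1 was higher and 5 lower, with Neat1, the scaffold of paraspeckles, at 785, 776, 808 and 797 CPM in responders and 675, 699, 686 and 656 CPM in the pool (adjusted p = 4.19e-13), and Malat1 at 1591, 1673, 1606 and 1696 CPM and 1834, 1966, 2144 and 2141 CPM (adjusted p = 0.000736). Neat1 was higher and Malat1 lower in 4 of 4 responders.

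Genes were also grouped by bystanders against untreated cells, 2 groups outside the contrast. Their libraries enter it through the low-count filter, the TMM scaling and the shared estimate of the spread. Bystanders and untreated cells differed at least 2-fold in 946 genes called higher (7.51% of those tested) and 370 called lower (2.94%). Of the 946 genes higher in bystanders, 466 (49.3%) were higher and 7 (0.74%) lower in responders than in the pool, with a median log2 fold of 0.17. Of the 370 genes lower in bystanders, 15 (4.05%) were higher and 99 (26.8%) lower, with a median of -0.15. At a 4-fold limit the sets were 409 and 22 genes, of which 214 were higher and 2 lower, and 4 higher and 5 lower. Library totals alone raised the lower calls in the 370 to 210, and those among all 12589 genes from 1195 to 2438. Without responder 3 the lower calls in the 946 were 4. With TMM scaling 16% of all genes tested were called higher and 9.49% lower.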

How the data were processed

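RNA was extracted from each sample with TRIzol LS and DNase and passed at RIN above 7.1, per the labels' protocols. The values are raw read counts per gene, which the authors made on GRCm38 with HISAT2 2.2.2 and featureCounts 2.1.1, after cutadapt 3.7 and fastp 1.1.0, per the submitters' processing notes. For the annotation, strandedness and multimapping reads, the setting is not given in the sources used here. Without known strand, overlapping and antisense genes cannot be told apart, and counts of near-identical copies are uncertain. Of 27179 gene IDs, 25275 matched RefSeq (GRCm38.p6), and the other 1904 held 0.399% of counts. Coordinates are those of RefSeq GRCm38.p6.

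The 16 libraries, 4 in each of 4 groups, were fitted together with edgeR 4.0.16 (R 4.3.3; filterByExpr by group, TMM, robust quasi-likelihood F test), so that all groups shared 1 estimate of the spread. Responders were tested against the LPS pool, with Benjamini-Hochberg adjustment over 12589 genes and a threshold of 0.05. Each adjusted p in the text comes from this test unless another fit is named. The SE of a log2 fold is the fold divided by the square root of F. The fit was also run on simulated counts for 12422 genes of this comparison, 200 of them changed. It recovered 58% of 100 genes with a log2 change of 0.25 and 82% of 100 with one of 0.5. Of its calls there, 7.28% were false. In the data 25.5% of the 12589 genes were called. How the fit performs with that share of genes changed was not tested, so the percentages hold for the simulated counts only. Alternatives used DESeq2 1.42.0 and other scalings, filters and sets of libraries.

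Named genes were the 12 highest and 12 lowest folds among calls with separate groups and a mean of 5 CPM or more, the 2 smallest p values of each list, and 15 genes of the LPS response. Other genes were chosen after their values were seen. The comparison, its members and the 36 gene lists were chosen with earlier results of these data known. The labels state no pairing by replicate number, and the numbers were not taken as pairs. Within groups, 12 pairs of replicates all differed by more than sampling noise. Some genes are not reported here.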

Additional observations from a re-analysis of the deposited data

Results flagged for a closer look

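In 7 of 74 checked sets of 4 libraries (37 genes in 2 groups), 1 library lay far from the other 3. For a single set chance gives about 1 in 20. The sets share the same libraries and are not independent, and the flags fell mostly in responder 2 and pool 4. In responder 2, Cxcl3 was at 5.68 CPM with the others at 6.71 to 6.87, Arhgef39 at 5.93 with the others at 4.71 to 4.80, and Nfkbia at 568 with the others at 550.4 to 553. In pool 4, Il1b was at 2926 CPM with the others at 2782 to 2798, Nos2 at 1082 with the others at 1168 to 1182, and Ccl5 at 892 with the others at 843 to 849.6. In pool 3, Tnf was at 1877 CPM with the others at 1979 to 1990.0. Responder 2, pool 3 and pool 4 were kept in every value of the text unless it says otherwise.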

How the results depend on the processing

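Of 213 counts of calls under alternatives 174 stayed within 1.5 times the count reported. Of 1880 values of 99 named genes 1776 kept their call or lack of one, 89 lost the call, 15 gained one and 0 calls reversed. Folds of genes with no call could change sign. The log2 fold of Col1a1 went from -0.93 to 1.48 without the 6 libraries with neural transcripts. Library totals alone gave 1073 higher and 2438 lower calls, and 210 lower among the 370 genes repressed in bystanders against untreated cells. Without a low-count filter, 37 higher calls passed 1.5-fold, 25 higher and 82 lower passed 2-fold, and 16 genes of the bystander-induced set were lower. With at least 1 CPM in 4 of 8 libraries these were 15 higher past 1.5-fold, and 0 higher and 8 lower past 2-fold. The test against a 1.2-fold change called 68 genes, 12 higher and 56 lower, with 3 and 37 past 1.5-fold, 1 and 13 past 2-fold, 5 and 0 in the induced set and 1 and 14 in the repressed set. It asks for a larger change, which reduces calls by construction. Leaving out each library in turn gave 2735 to 2964 calls, 1723 to 1810 higher and 1011 to 1154 lower. The same fits gave 17 to 26 higher and 94 to 120 lower past 1.5-fold and 6 to 12 higher and 33 to 48 lower past 2-fold. In the induced set 432 to 449 were higher and 4 to 10 lower, and in the repressed set 11 to 16 higher and 88 to 94 lower. Alternatives on neural transcripts were chosen after seeing the data, because the planned rule (a sum 5 times the median) found 0 libraries, so that planned fit was not run. Without the 6 libraries 18 higher calls passed 2-fold and 15 genes of the induced set were lower. With only those 6, which leaves 1 responder library assumed to vary like the other groups, there were 867 calls, 662 higher and 205 lower, with 13 and 48 past 1.5-fold, 22 lower past 2-fold, 243 higher and 2 lower in the induced set and 4 and 18 in the repressed set. With neural transcripts as a covariate 11 genes of the induced set were lower. Sets at 4-fold held 214 higher and 2 lower, and 4 higher and 5 lower. Apart from fewer samples, fewer genes or a stricter test, the cause of these changes was not tested.

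The replicate block gave 3194 calls, 2004 higher and 1190 lower. Deviations of same-numbered responder and pool libraries correlated at -0.46, 0.29, -0.17 and -0.22, so the numbers were not taken as pairs. Responder 1 correlated at 0.45 and 0.46 with pool 3 and 4, which like it carry neural transcripts, so this check could miss a weaker pairing. DESeq2 gave 1862 higher and 1320 lower calls. Depth limits rare transcripts: 46 of the 47 calls past 2-fold had means under 5 CPM.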
